A study of Homo sapiens with 12 samples.

Results

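The 10 genes described here encode the growth-regulating kinase mTOR, its nearest regulators, the repressors of translation that it controls and a related protein. They were selected by symbol from a Ribo-seq table of 15798 genes, and 10 of 10 were listed and tested among 10663 genes (those that reached 10 counts in 3 or more of the input libraries). HCT116 cells, a human colorectal cancer line, had received the MEK1 and MEK2 inhibitor trametinib at 100 nM, or its solvent DMSO, for 24 h. Both groups were grown in the same serum-containing medium and received cycloheximide, which halts ribosomes on mRNA, shortly before lysis. For each treatment there were 3 libraries of input RNA (total cytoplasmic RNA, fragmented at random) and 3 libraries of ribosome footprints (the mRNA stretches that ribosomes shield from RNase I), 12 libraries in all. One cell line, 1 dose and 1 time point were sampled.

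mTOR works in a pair of complexes. mTORC1 contains RPTOR, which brings substrates to the kinase, and mTORC2 contains RICTOR in its place. RHEB, a small GTPase on the lysosome, activates mTORC1 when it carries GTP, and the complex of TSC1 and TSC2 shuts RHEB off by stimulating GTP hydrolysis. ERK, the kinase downstream of MEK, is known to phosphorylate TSC2 and to relieve this brake. Active mTORC1 phosphorylates the 4E-BPs, which otherwise sequester the cap-binding protein eIF4E, and LARP1, which otherwise covers the cap of mRNAs that begin with a C followed by pyrimidines (5′TOP mRNAs, most of them coding for ribosomal proteins and translation factors). LARP4 is a related protein that binds poly(A) tails and stabilises mRNAs. These controls act largely on proteins, through phosphorylation, which none of the libraries measured.

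Libraries held 2276693 to 2845568 counted reads for input and 10127477 to 19181588 for footprints. Of 8 epithelial markers 5 exceeded 10 counts in every input library (EPCAM, CDH1, KRT8, KRT18 and KRT19), while CDH17, VIL1 and CEACAM5 were at or near 0. Of 6 markers of other cell types, PTPRC, CD3E, COL1A2 and PECAM1 were at or near 0, and COL1A1 and ACTA2 did not exceed 36 counts in any input library. The 5 genes used to check the treatment, the ERK-induced genes DUSP6, SPRY2, SPRY4, ETV4 and ETV5, were lower with trametinib in 5 of 5 cases in input and in footprints. DMSO replicate 1 stood apart: its input and its footprint library deviated from the other DMSO libraries in the same genes (r = 0.816 across 7669 genes, against −0.122 to 0.343 for the other 5 pairs of input and footprint libraries). Results that rest on it are given with and without it.

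The first bases of an mRNA decide whether it can belong to the 5′TOP class that LARP1 controls, so the starts of the canonical GENCODE v44 transcripts (build GRCh38) are shown for members of each branch (that of EIF4EBP1 is not shown), with a ribosomal protein and a translation elongation factor for contrast. Each sequence gives the first 20 bases from the transcript start, 5′ to 3′, with the first 5 in capitals.
LARP1: GTCCAtattgctgcagcccc
EIF4EBP2: GCTTCcggtcgtcgtcgtcg
MTOR: GCTCCcggcttagaggacag
RPTOR: GTCCTggcaatatggcgtcc
TSC1: GTACGtccaagatggcggcg
TSC2: GCTTCcggcggcgtcccggg
RHEB: GGGAGggtcatgacgcagcg
RPS6: CTCTTttccgtggcgcctcg
EEF2: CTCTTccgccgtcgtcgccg

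RPS6 starts at chr9:19380217-19380236 on the minus strand and EEF2 at chr19:3985444-3985463 on the minus strand, and both begin with C and an unbroken run of pyrimidines. LARP1 starts at chr5:154755377-154755396 (plus strand), EIF4EBP2 at chr10:70404145-70404164 (plus), MTOR at chr1:11262532-11262551 (minus), RPTOR at chr17:80544838-80544857 (plus), TSC1 at chr9:132944597-132944616 (minus), TSC2 at chr16:2047985-2048004 (plus) and RHEB at chr7:151519876-151519895 (minus). Several of these, such as those of EIF4EBP2, TSC2 and MTOR, have pyrimidines after the first base but open with a G. None of the 10 genes (0 of 10) had an annotated start of C followed by 4 pyrimidines, against 5.89% of the 10603 tested genes with a sequence and 60 of 79 tested cytosolic ribosomal protein genes (75.9%). The annotated start is the reference one, and the start used in these cells was not measured. By their annotated starts the genes described are thus not 5′TOP mRNAs themselves. Their ribosome density is compared with that of 5′TOP mRNAs further on.

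EIF4EBP1 (ENSG00000187840.5), which codes for the repressor 4E-BP1, fell the most of the 10 genes, in mRNA and in ribosome footprints alike. Its normalized counts (reads divided by a size factor per library) in input were 233, 160 and 129 in DMSO and 65.0, 48.9 and 30.9 in trametinib. Its footprints were 499, 316 and 258 normalized counts in DMSO and 119, 90.8 and 101 in trametinib. All trametinib libraries lay below all DMSO libraries in both assays, and DMSO replicate 1 was the highest. Trametinib brought input to 28.1% of DMSO (log2 change −1.83, SE 0.31, adjusted p = 0.000632, edgeR quasi-likelihood test with Benjamini-Hochberg adjustment over all tested genes) and footprints to 29.0% (−1.79, SE 0.24, adjusted p = 0.000423). Without DMSO replicate 1 the log2 changes were −1.56 in input and −1.45 in footprints, with adjusted p = 0.000361 and 1.49e-06. The raw counts behind the trametinib input values were 27, 19 and 12 reads. In a bulk lysate, less of this mRNA in every cell and fewer cells that express it cannot be told apart.

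EIF4EBP2 (ENSG00000148730.7, chr10:70404145-70428618, plus strand), which codes for the second 4E-BP and is controlled by mTORC1 in the same way, did not follow EIF4EBP1. Its input counts were 90.6, 125 and 129 in DMSO and 118, 116 and 167 in trametinib, with the groups overlapping (log2 change 0.23, SE 0.24, adjusted p = 0.499 by edgeR). Footprints were 69.3, 137 and 170 in DMSO and 189, 181 and 218 in trametinib. Every trametinib footprint library was above every DMSO one, and the gap was widest to DMSO replicate 1. The footprint change was 0.65 (SE 0.28, adjusted p = 0.0783 by edgeR), which does not pass the threshold of 0.05. With the replicate number as a block, which the footprint libraries of both treatments shared, it was 0.73 with adjusted p = 0.0298. Without DMSO replicate 1 it was 0.35 with adjusted p = 0.0374. Of the 6 fits that each left out 1 footprint library, only 2 gave a call (adjusted p from 0.0192 to 0.208 by edgeR). EIF4EBP3, the remaining member of the family, had at most 2 counts in a library and was not tested, and reads shared with its readthrough transcript would not have been counted for it.

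The mean share of EIF4EBP1 among reads of both 4E-BP genes was above 50.0% in DMSO and below it in trametinib. EIF4EBP1 made up 72.0%, 56.1% and 50.0% of the reads of the 2 genes in DMSO input and 35.5%, 29.7% and 15.6% in trametinib input, or 59.4% ± 11.4 against 26.9% ± 10.3 (SD, n = 3). In footprints it made up 87.8%, 69.8% and 60.3% in DMSO and 38.5%, 33.4% and 31.7% in trametinib, or 72.6% ± 14.0 against 34.6% ± 3.53 (SD, n = 3). Every DMSO share exceeded every trametinib share, in input as in footprints. An exact two-sided permutation test gave p = 0.1 for each, the smallest value that 3 against 3 libraries allow, and 0.2 after adjustment over the 8 share tests. Without DMSO replicate 1 the difference was −26.1 percentage points in input and −30.5 in footprints, compared with −32.4 and −38.1 with it. These shares need no scaling between libraries, and the coding sequences of the 2 genes have nearly the same length (354 and 360 bases).

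**Figure D1:**
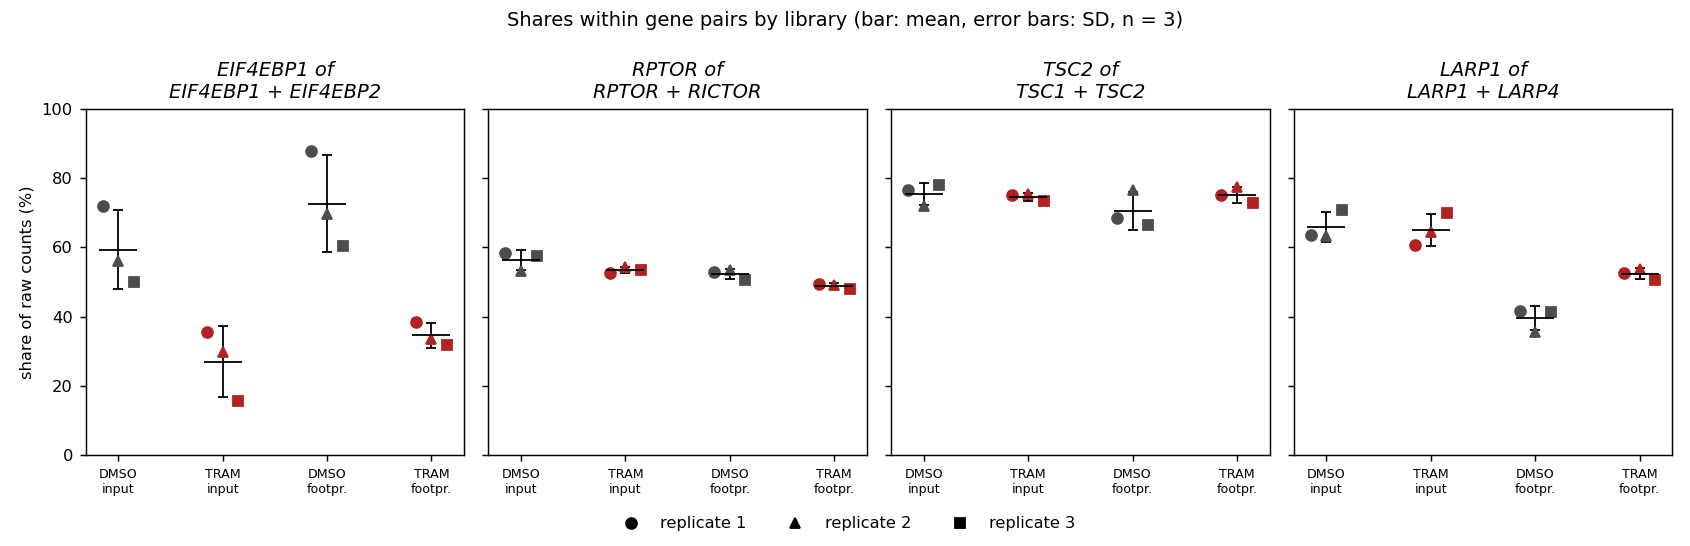
Share of raw counts (%, vertical axis) taken by the first gene of each pair, in input and in footprint (footpr.) libraries of DMSO (grey) and trametinib (TRAM, red), with the mean and SD of 3 libraries. The mean share of EIF4EBP1 in input is 59.4% in DMSO and 26.9% in trametinib, and in footprints 72.6% and 34.6%. All trametinib footprint libraries have a higher share of LARP1 than all DMSO ones.

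LARP1 (ENSG00000155506.19, chr5:154682986-154817605, plus strand), the repressor of 5′TOP mRNAs, differed between the assays in its estimates but passed no test. In input it had 1031, 970 and 885 normalized counts in DMSO and 626, 744 and 825 in trametinib. In footprints it had 756, 465 and 707 in DMSO and 691, 644 and 673 in trametinib. Input libraries were lower in trametinib without overlap, whereas the footprint libraries overlapped. The log2 change was −0.39 in input (SE 0.16, adjusted p = 0.0773 by edgeR) and 0.06 in footprints (SE 0.17, adjusted p = 0.803). Without DMSO input replicate 3 the input change was −0.44 with adjusted p = 0.0484. Without DMSO input replicate 1 it was −0.33 with adjusted p = 0.113. Of the 6 fits that each left out 1 input library, 1 gave a call (adjusted p up to 0.301 by edgeR). Without DMSO footprint replicate 2, the lowest one, the footprint change was −0.12.

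LARP4 (ENSG00000161813.23, chr12:50392383-50480004, plus strand) lost footprints. It had 1061, 844 and 1000 normalized footprint counts in DMSO and 625, 551 and 655 in trametinib, so that every trametinib library was below every DMSO library. This was a fall to 63.0% of DMSO (log2 change −0.67, SE 0.12, adjusted p = 0.00232 by edgeR). Input counts were 587, 564 and 365 in DMSO and 404, 409 and 355 in trametinib, where DMSO replicate 3 was down among the trametinib libraries (log2 change −0.37, SE 0.19, adjusted p = 0.162). Without that replicate the input change was −0.55 with adjusted p = 0.0142. Without DMSO replicate 1 it was −0.25 with adjusted p = 0.339. Of the 6 fits that each left out 1 input library, 1 gave a call (adjusted p up to 0.360 by edgeR). The share of LARP1 in the footprints of both genes was 39.5% ± 3.47 in DMSO and 52.4% ± 1.61 in trametinib (SD, n = 3, no overlap, exact permutation p = 0.1, adjusted 0.2). The same share in input was 65.9% ± 4.22 and 65.1% ± 4.62 (exact permutation p = 0.8).

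**Figure D2:**
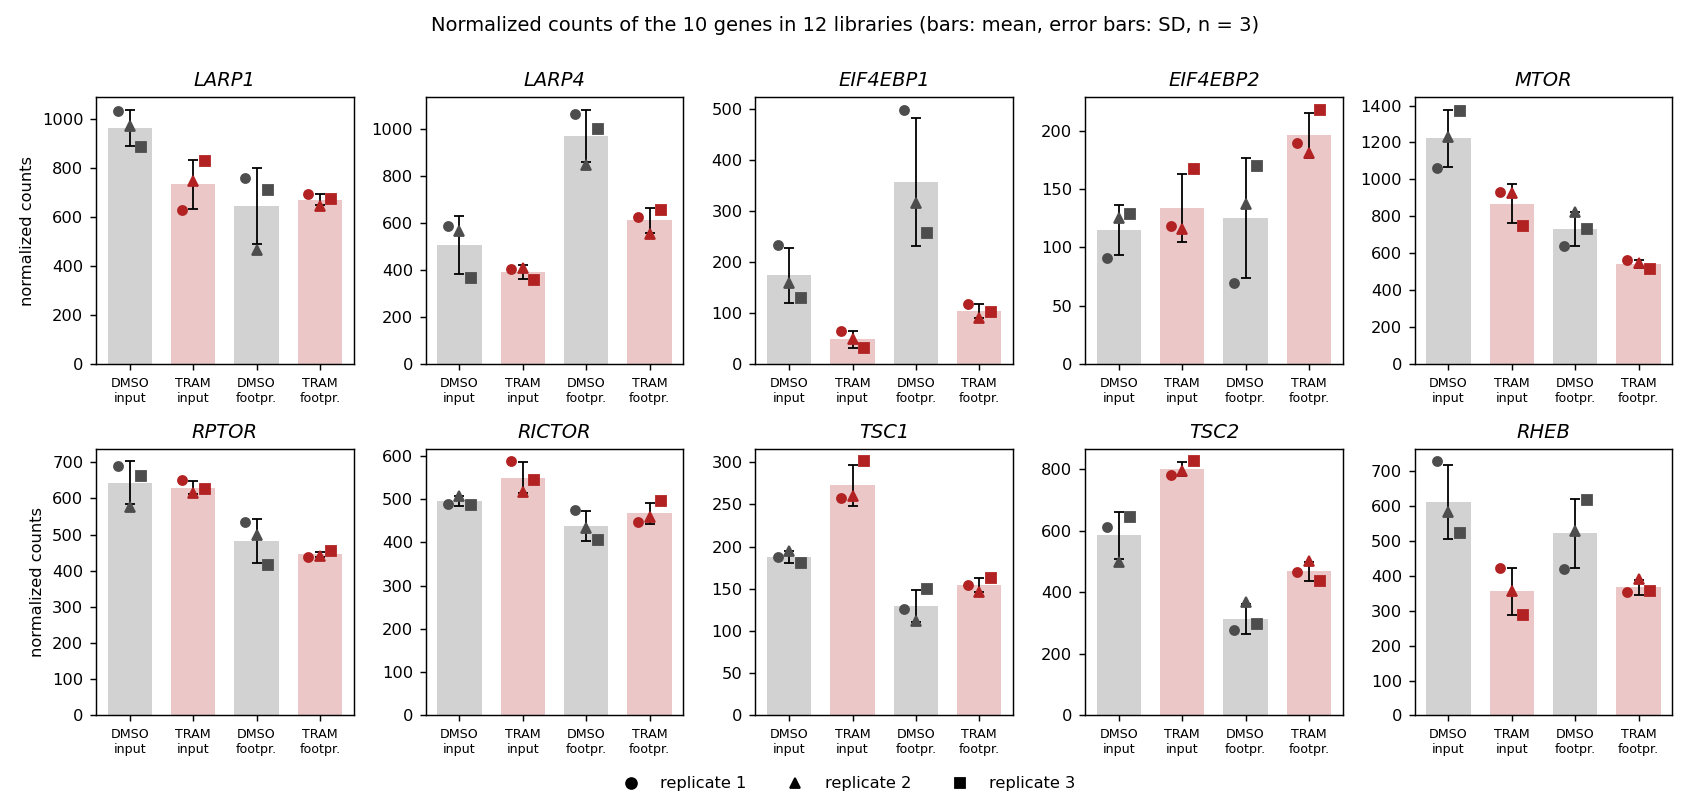
Normalized counts (vertical axis, own scale per gene, starting at 0) of the 10 genes in input and footprint (footpr.) libraries of DMSO (grey) and trametinib (TRAM, red). Bars are means and error bars SDs of 3 libraries, and symbols mark the replicate number. EIF4EBP1 falls in both assays, TSC2 rises in both, and the footprints of RPTOR and RICTOR overlap between treatments.

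MTOR (ENSG00000198793.14, chr1:11106535-11262556, minus strand), the kinase itself, was lower with trametinib in both assays. Its input counts were 1063, 1232 and 1372 in DMSO and 931, 926 and 748 in trametinib. Its footprint counts were 637, 821 and 731 in DMSO and 563, 546 and 517 in trametinib. Each trametinib value was below each DMSO value of its assay. Input fell to 71.4% of DMSO (log2 change −0.49, SE 0.16, adjusted p = 0.0327 by edgeR) and footprints to 74.4% (−0.43, SE 0.12, adjusted p = 0.0165). The input call was lost when any 1 input library other than DMSO replicate 1 was left out (log2 change −0.54 to −0.39, adjusted p up to 0.154). The footprint call was lost without DMSO replicate 2 or any 1 trametinib library (adjusted p up to 0.0631).

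Neither partner that tells the mTOR complexes apart passed a test. RPTOR (ENSG00000141564.16, chr17:80544819-80966371, plus strand) had 690, 577 and 663 input counts in DMSO and 650, 615 and 625 in trametinib, and 534, 498 and 416 against 439, 442 and 454 in footprints. RICTOR (ENSG00000164327.14, chr5:38937920-39074402, minus strand) had 490, 508 and 487 input counts in DMSO and 587, 517 and 545 in trametinib, and 476, 433 and 406 against 448, 459 and 495 in footprints. Only the input libraries of RICTOR did not overlap. For RPTOR the log2 change was −0.02 in input (approximate 95% interval −0.31 to 0.27) and −0.12 in footprints (−0.35 to 0.12). For RICTOR it was 0.16 in input (−0.13 to 0.45) and 0.09 in footprints (−0.12 to 0.30). The adjusted p by edgeR was between 0.436 and 0.923 in these 4 tests. RPTOR made up 56.4% ± 2.85 of the reads of both genes in DMSO input and 53.4% ± 0.895 in trametinib input (SD, n = 3, exact permutation p = 0.3), and 52.3% ± 1.51 and 48.8% ± 0.853 in footprints (exact permutation p = 0.1, adjusted 0.2).

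The mRNAs of the brake on RHEB were higher and the mRNA of RHEB was lower. TSC2 (ENSG00000103197.19, chr16:2047967-2089491, plus strand), the subunit with the GTPase-activating domain, had 613, 499 and 644 input counts in DMSO and 782, 795 and 825 in trametinib. Its footprints were 276, 369 and 296 in DMSO and 465, 500 and 438 in trametinib. The trametinib libraries were the higher ones throughout, with no overlap. Input rose to 138% of DMSO (log2 change 0.46, SE 0.15, adjusted p = 0.0377 by edgeR) and footprints to 150% (0.58, SE 0.13, adjusted p = 0.00603). The footprint call held in 6 of 6 fits that each left out 1 library, but the input call was lost without DMSO replicate 2 or any 1 trametinib library (adjusted p up to 0.124) and with no filter on low counts (adjusted p = 0.0569).

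TSC1 (ENSG00000165699.15, chr9:132891348-132946874, minus strand), which stabilises TSC2, rose in input and missed the threshold in footprints. Input counts were 188, 194 and 180 in DMSO and 258, 260 and 301 in trametinib, without overlap, which is 146% of DMSO (log2 change 0.55, SE 0.17, adjusted p = 0.0278 by edgeR). Footprints were 126, 112 and 150 in DMSO and 155, 146 and 163 in trametinib, with overlap (log2 change 0.25, SE 0.14, adjusted p = 0.164). The input call was lost without DMSO replicate 2 or any 1 trametinib library (adjusted p up to 0.121). Reads from TSC2 made up 75.5% ± 3.20 of both genes in DMSO input and 74.6% ± 1.16 in trametinib input, and 70.6% ± 5.42 and 75.1% ± 2.28 in footprints (SD, n = 3). These shares overlapped between treatments (exact permutation p = 0.8 and 0.3, without pairing). Within same-numbered footprint libraries the TSC2 share was higher in trametinib in each case (68.6% and 75.0%, 76.7% and 77.4%, 66.4% and 72.9%), and in input it was not.

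RHEB (ENSG00000106615.10, chr7:151466012-151520120, minus strand), the activator of mTORC1, had 727, 581 and 522 input counts in DMSO and 421, 355 and 288 in trametinib. Its footprints were 420, 528 and 617 in DMSO and 353, 392 and 355 in trametinib. Every trametinib library was below every DMSO library, although in footprints the gap to DMSO replicate 1 was small. Input fell to 58.4% of DMSO (log2 change −0.78, SE 0.19, adjusted p = 0.00705 by edgeR) and footprints to 70.4% (−0.51, SE 0.14, adjusted p = 0.0173). The input call held in 6 of 6 fits that left out 1 library. The footprint call held on omitting DMSO replicate 1 (−0.64) or trametinib replicate 2 and was lost without DMSO replicate 2 or 3 or trametinib replicate 1 or 3 (adjusted p up to 0.0686).

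Counted over the 10 genes, 2 rose (TSC1 and TSC2), 3 fell (EIF4EBP1, RHEB and MTOR) and 5 were not called in input. Among all tested genes 15.4% rose and 16.8% fell. In footprints 1 rose (TSC2), 4 fell (EIF4EBP1, LARP4, RHEB and MTOR) and 5 were not called, where 23.9% of all tested genes rose and 25.6% fell. Libraries of the treatments did not overlap for 7 of the 10 genes in input and for 6 in footprints, against 46.6% and 59.6% of all tested genes. With this many changes among all genes, counts of this size in 10 genes are close to the background. The median log2 change of the 10 genes was −0.20 in input and −0.03 in footprints, and over all tested genes it was −0.0015 and −0.013. Scaling footprints by library totals moved the median of all genes by over 0.1, from −0.013 to 0.165, and the split of all calls from 2545 higher and 2727 lower to 3577 higher and 1944 lower. With that scaling MTOR (−0.25, adjusted p = 0.122) and RHEB (−0.33, adjusted p = 0.0895) were no longer called in footprints, EIF4EBP2 (0.82, adjusted p = 0.0348) and TSC1 (0.43, adjusted p = 0.0282) were, and EIF4EBP1, LARP4 and TSC2 remained so. The edgeR tests scaled each assay to its own libraries, and the normalized counts and the density test used factors over all 12 libraries. With either scaling a change shared by all mRNAs is not seen.

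**Figure D3:**
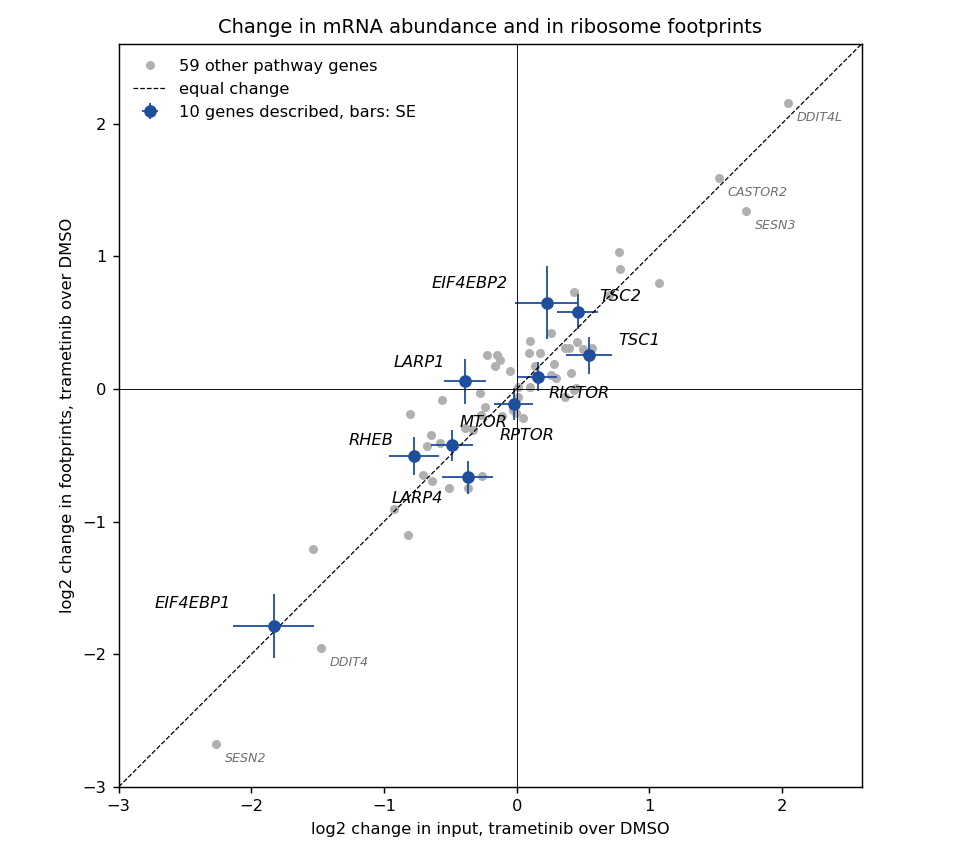
Log2 change with trametinib in input (horizontal axis) and in footprints (vertical axis) for the 10 genes (blue, bars show SE) and 59 other tested genes of the mTORC1 pathway (grey). The dashed line marks equal change in both assays, and EIF4EBP1 lies close to it at −1.83 and −1.79.

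Ribosome density relates footprints to the amount of mRNA. Its change asks whether a gene gained or lost ribosomes beyond the change of its mRNA, relative to the typical mRNA. Scaling removes a density change shared by all mRNAs, so a value near 0 says nothing on a common gain or loss. None of the 10 genes was called (DESeq2 likelihood ratio test of the interaction of assay and treatment, Benjamini-Hochberg over all tested genes). In that test 0 of 10 had an unadjusted p under 0.05, against 840 of all 10663 tested genes. A count of 0 in 10 genes is close to that background. The edgeR quasi-likelihood and limma tests of the same interaction also called 0. Of all tested genes 0.328% were called higher and 1.41% lower. The median SE of a density change was 0.29 over all tested genes, so that changes of the size seen in most of these 10 genes were not detectable.

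LARP1 had the lowest p of the 10 genes in this test. Dividing footprints by input of the same replicate number gave 0.733, 0.479 and 0.799 for LARP1 in DMSO and 1.10, 0.866 and 0.816 in trametinib. All values were higher in trametinib, by a narrow margin at replicate 3 of both, and it was the only one of the 10 genes without overlap (16.9% of 10627 genes had none). This lack of overlap depends on matching libraries by number. Trametinib input and footprint libraries of the same number did not deviate together in every pair (r = 0.141, 0.0803 and −0.122). The estimated density change was 0.45 (95% interval −0.05 to 0.96, adjusted p = 0.741 by DESeq2). Leaving out 1 library at a time gave 0.27 to 0.58, and leaving out DMSO replicate 1 in both assays gave 0.53.

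For the other genes the interval of the density change included 0 as well. EIF4EBP1 carried 2.14, 1.98 and 2.00 footprints per input count in DMSO and 1.82, 1.86 and 3.28 in trametinib, where replicate 3 rests on 12 input reads (density change 0.06, 95% interval −0.81 to 0.92). The estimate for EIF4EBP2 was 0.43 (−0.40 to 1.26), and 0.27 without DMSO replicate 1 in both assays. The estimate for LARP4 was −0.29 (−0.79 to 0.21), for TSC1 −0.29 (−0.74 to 0.16) and for RHEB 0.27 (−0.26 to 0.80). The narrowest intervals were those of RICTOR (−0.39 to 0.27) and RPTOR (−0.45 to 0.27), which still allow a fall in density. MTOR (−0.34 to 0.47) and TSC2 (−0.28 to 0.53) were near 0 with similar width.

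**Figure D4:**
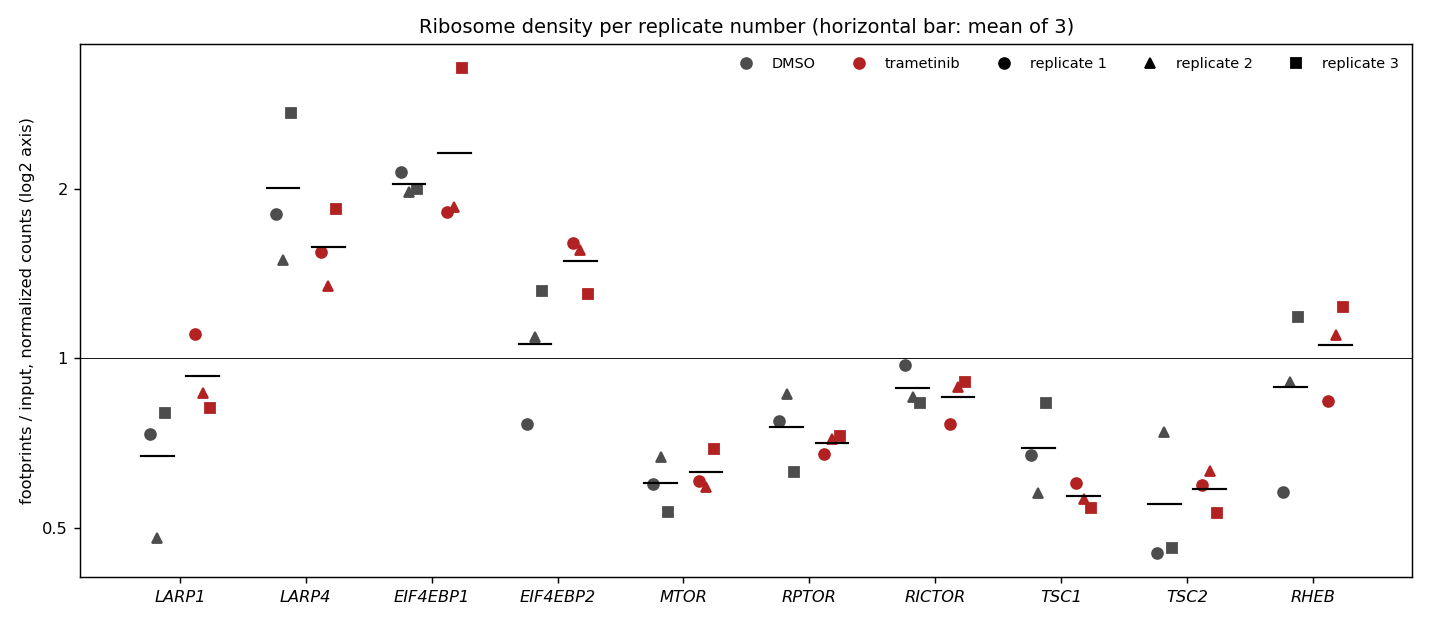
Footprints divided by input, both as normalized counts (vertical axis, log2 scale), pairing the libraries that share a treatment and a replicate number. Horizontal bars are means of 3. Only for LARP1 do all trametinib values (0.816 to 1.10) exceed all DMSO values (0.479 to 0.799).

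The baseline itself differed among the genes. Percentiles rank the mean log2 of footprints over input, with a small constant added to both, and not the mean density printed here. In DMSO EIF4EBP1 (mean density 2.04 ± 0.0892) and LARP4 (2.01 ± 0.646, both SD, n = 3) stood at the 87.1 and 85.2 percentile of tested genes, and EIF4EBP2 with 1.06 ± 0.279 was at the middle (50.1 percentile). TSC2 (0.550 ± 0.164), MTOR (0.599 ± 0.0668) and LARP1 (0.671 ± 0.169) were in the lower part, at the 17.8, 22.0 and 25.9 percentile. RHEB (0.889 ± 0.303) was at the 39.0 percentile.

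Ribosomal protein mRNAs, the main class of 5′TOP mRNAs, lost density. Of 79 tested ribosomal protein genes 68 were called lower in density and 0 higher, with a median change of −1.08. Their median input change was 0.20 and their median footprint change −0.95. Of the other 563 tested genes with an annotated start of C and 4 pyrimidines, 37 were called lower and 3 higher (median −0.12), and of 9946 tested genes without such a start 45 were called lower and 32 higher (median 0.01). The 10 genes described here had a median of 0.06, and the range of their changes, −0.29 to 0.45, lay wholly above the range of the ribosomal protein genes, −1.59 to −0.33. No test of this difference between lists was made.

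To compare abundance between genes, normalized input counts were divided by coding length. RHEB was the most abundant of the 10 mRNAs in both treatments, with 1105 ± 191 counts per kb in DMSO and 643 ± 121 in trametinib (SD, n = 3), and TSC1 the least, with 53.7 ± 2.03 and 78.1 ± 6.97. In DMSO the order continued after RHEB with EIF4EBP1 (491 ± 151), EIF4EBP2 (319 ± 58.7), LARP1 (293 ± 22.3), LARP4 (233 ± 56.1), RPTOR (161 ± 14.8), MTOR (160 ± 20.2), TSC2 (108 ± 14.1) and RICTOR (96.6 ± 2.20). Neighbours from EIF4EBP2 to MTOR overlapped in their libraries, as did TSC2 and RICTOR. With trametinib EIF4EBP1 moved from rank 2 to rank 7 of input (136 ± 48.2 counts per kb), overlapping its neighbours TSC2 (148 ± 4.08) and MTOR (114 ± 13.7), and EIF4EBP2 took rank 2 (371 ± 80.6).

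Footprints per kb kept EIF4EBP1 (1010 ± 356) and RHEB (945 ± 179) at the top in DMSO, with overlapping libraries. With trametinib RHEB (664 ± 39.2) and EIF4EBP2 (544 ± 54.0) led and EIF4EBP1 (293 ± 39.6) shared the next place with LARP4 (281 ± 24.5). TSC1 was the lowest in both treatments (37.1 ± 5.49 and 44.3 ± 2.48). The coding sequences of the 4E-BPs and RHEB are under 0.6 kb, where few reads and the ends of the reading frame weigh more.

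Of 67 further genes of the pathway, 59 were tested. In input 5 rose and 8 fell (8.47% and 13.6%), and in footprints 11 rose and 9 fell (18.6% and 15.3%), which in both directions is below the shares of all tested genes. Their median log2 change was 0.0062 in input and 0.012 in footprints. None was called in density (0 of 59). In that DESeq2 test 2 of the 59 had an unadjusted p under 0.05, against 840 of all 10663 tested genes. The 8 genes not tested, among them PRR5L, RHEBL1, RRAGC, CASTOR1, EIF4EBP3, EIF4E3 and PRKAA2, had at most 10 counts in any input library. The filter used input alone, and in footprints RRAGC, RHEBL1, EIF4E3 and PRKAA2 reached 37, 44, 78 and 79 counts. Footprint counts of RHEBL1 were 26, 18 and 44 in DMSO and 2, 2 and 1 in trametinib. Those of EIF4E3 went the other way, with 21, 20 and 29 against 78, 46 and 41.

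The largest changes were in genes that restrain mTORC1 under stress. SESN2, a leucine sensor that inhibits mTORC1 through GATOR2, had 882, 339 and 246 input counts in DMSO and 120, 90.1 and 92.6 in trametinib (log2 change −2.27, SE 0.41, adjusted p = 0.00104 by edgeR), and −2.68 in footprints (SE 0.48, adjusted p = 0.00181). DDIT4 (REDD1), which activates the TSC complex, had 2532, 961 and 698 in DMSO and 484, 551 and 465 in trametinib (−1.48, SE 0.37, adjusted p = 0.00818), and −1.95 in footprints (SE 0.44, adjusted p = 0.00577). Both were lower in every trametinib library, and both were by far the highest in DMSO replicate 1, as EIF4EBP1 was. Without that replicate SESN2 changed by −1.52 in input and −1.92 in footprints, and DDIT4 by −0.72 and −1.19, all still called.

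SESN3 and DDIT4L, paralogs of SESN2 and DDIT4, went the other way. SESN3 had 38.8, 71.3 and 49.2 input counts in DMSO and 200, 147 and 180 in trametinib (log2 change 1.73, SE 0.26, adjusted p = 0.000272 by edgeR), with 1.34 in footprints. DDIT4L (REDD2) had 45.3, 75.6 and 53.9 in DMSO and 245, 237 and 239 in trametinib (2.05, SE 0.23, adjusted p = 2.34e-05), with 2.15 in footprints. CASTOR2, a GATOR2-binding inhibitor of the same branch, rose by 1.52 in input (SE 0.23) and 1.59 in footprints (SE 0.24). No library of one treatment reached the other for these 3 genes in input. DDIT4 and DDIT4L, which both restrain mTORC1, changed in opposite directions, as did SESN2 and SESN3. SESN1, the remaining sestrin, named here after its values were seen, was not called (log2 change 0.18 in input, adjusted p = 0.594 by edgeR, and 0.27 in footprints, adjusted p = 0.417).

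**Figure D5:**
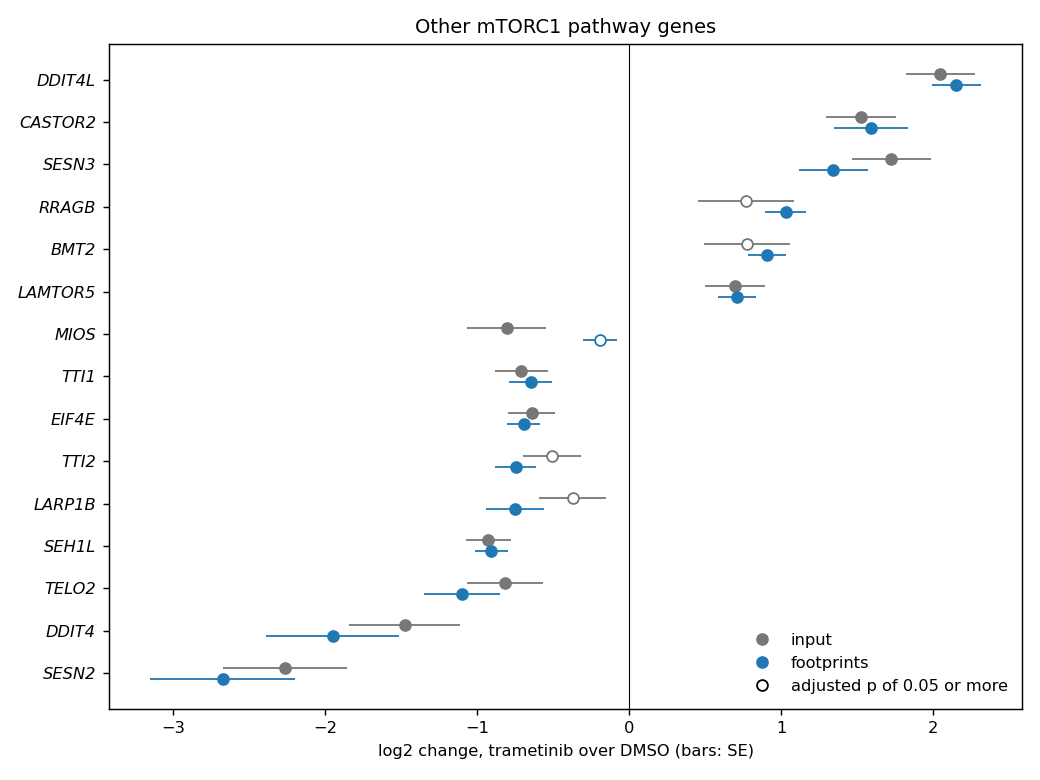
Log2 change with trametinib (horizontal axis, bars show SE) in input (grey) and footprints (blue) for 15 pathway genes with the largest called changes in either assay that are reported here. Open symbols mark an adjusted p of 0.05 or more. SESN2 and DDIT4 lie at the lower end, and DDIT4L, CASTOR2 and SESN3 at the upper end.

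Among mTOR complex subunits and assembly factors 2 of 8 tested genes fell in input (TELO2 −0.82, TTI1 −0.71) and 3 fell in footprints (TELO2 −1.10, TTI2 −0.75, TTI1 −0.65), while 0 rose. Of these 8 genes 25.0% fell in input and 37.5% in footprints, against 16.8% and 25.6% of all tested genes. In 8 genes such counts are close to the background. TELO2, TTI1 and TTI2 form the TTT complex, a co-chaperone through which newly made mTOR and related kinases mature. The input call of TELO2 was lost without any 1 library other than DMSO replicate 1, and that of TTI1 without trametinib replicate 2 (adjusted p up to 0.104). Among all tested genes 15.4% rose and 16.8% fell in input, and 23.9% rose and 25.6% fell in footprints. Of the amino acid branch, 29 genes tested, 3 rose and 4 fell in input (10.3% and 13.8%), and 7 rose and 3 fell in footprints (24.1% and 10.3%). Besides the sestrins and CASTOR2 the named ones were LAMTOR5 (0.70 in input), a Ragulator subunit, the GATOR2 subunits SEH1L (−0.93 in input and −0.91 in footprints) and MIOS (−0.81 in input, −0.19 and not called in footprints), RRAGB (1.03 in footprints), a Rag GTPase, and BMT2 (0.90 in footprints), a methionine-linked inhibitor also called SAMTOR. The input call was lost for LAMTOR5 without replicate 2 of DMSO or of trametinib and for MIOS without DMSO replicate 1 or trametinib replicate 2 or 3 (adjusted p up to 0.136). ITFG2 was called lower in both assays with a mean below 50 normalized counts.

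Within the family of 4E-BP and La-related genes and their targets, 7 tested, EIF4E fell in input (−0.64, SE 0.16, adjusted p = 0.00728 by edgeR) and in footprints (−0.69). It codes for the cap-binding protein that 4E-BPs sequester. LARP1B, the closest relative of LARP1, fell in footprints (−0.75, SE 0.19, adjusted p = 0.011), and its input change was −0.37 (adjusted p = 0.219).

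Over the 12 libraries, after centring each assay, the genes most like EIF4EBP1 were FGF19 (Pearson r = 0.992), PPP1R15B (0.984) and STC2 (0.984), out of 6790 candidates with a mean of at least 100 normalized counts in each assay. FGF19 (log2 change −5.10 in input) and STC2 (−3.49) fell more than EIF4EBP1, and PPP1R15B (−0.71) fell less. The genes most like LARP1 were CCDC112 (0.874), INTS14 (0.854) and SAP30BP (0.850), with input changes of −0.57, −0.51 and −0.42. These correlations share the treatment difference and DMSO replicate 1, and are given as a description.

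Promoter sequence was searched because ERK is known to act on ETS transcription factors, whose binding sites contain GGAA. The letters CCGGAAG, on either strand, were found in RefSeq windows (GRCh38.p14, 250 bases before to 50 after the annotated start) of TSC1, TSC2, EIF4EBP2 and LARP4 and in none of those of LARP1, MTOR, RPTOR, RICTOR or RHEB. No window of EIF4EBP1 was searched. That is 5 of 15 windows of 9 genes (33.3%), against 17.7% of the windows of tested genes and 10.3% of all windows. A match of each gene is shown on the strand of the gene with the motif, or its reverse complement CTTCCGG, in capitals.
TSC1: gagcctcttcCTTCCGGcggggctgcc
TSC2: aatgccgctaCCGGAAGtgcgggtcgc
LARP4: ttccctagacCCGGAAGcagttgttgt
EIF4EBP2: ccttcgcccgCTTCCGGtcgtcgtcgt

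The TSC1 match is at chr9:132944729-132944755 (minus strand), the TSC2 one at chr16:2047958-2047984 (plus), the LARP4 one at chr12:50400803-50400829 (plus) and the EIF4EBP2 one at chr10:70404136-70404162 (plus). Both TSC2 windows overlap and hold the same pair of matches, of which the other, CTTCCGG at chr16:2047976-2048002 (plus), is not shown. Genes with these letters rose (TSC1 and TSC2 in input), fell (LARP4 in footprints) or passed no test (EIF4EBP2). Of the genes without them RHEB and MTOR fell, and LARP1, RPTOR and RICTOR passed no test. A match of letters is not a binding site, and binding was not measured.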

How the data were processed

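Input RNA and ribosome footprints of HCT116 cells were sequenced in 12 libraries, 3 for each of 4 groups, grouped and numbered by their labels. The authors selected fragments of 25 to 35 nt, removed rRNA and tRNA reads with Bowtie (1.2.2, per the submitters' processing notes), mapped to Gencode transcripts and counted reads in the reading frames of 1 gene symbol alone, so reads shared between symbols are missing. Per the file headers, the deposited table holds raw counts and normalized counts (signal: counts divided by a size factor of DESeq2, 1.46.0 in the notes), which equal median-of-ratios factors recomputed here in 12 of 12 libraries. Every column of counts belonged to a labelled library (0 left over). The authors' columns of fold changes, adjusted p-values and gene marks were not used.

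Tests started from raw counts: edgeR 4.0.16 quasi-likelihood F-tests (TMM) within input and within footprints, and DESeq2 1.42.0 likelihood ratio tests of the interaction for ribosome density, in R 4.3.3, over 10663 genes that reached 10 counts in 3 or more input libraries, called at an adjusted p under 0.05. SEs from edgeR were taken from the F statistic, and intervals are 95% and unadjusted. They use a normal quantile, so the intervals of edgeR changes are approximate and narrower than its F-test implies. limma 3.58.1 and DESeq2 Wald tests were alternatives. The code was tested on simulated data. Shares within a library were compared with exact permutation tests. Replicates are biological per the series' design, and no pair of replicate libraries agreed within sampling noise (chi-square test).

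Same-numbered footprint libraries of DMSO and trametinib deviated together (r = 0.117, 0.133 and 0.294), whereas input libraries did not in every pair (0.0680, 0.0484 and 0.334). The main tests and the permutation tests used no pairing, and fits with the replicate number as a block were alternatives. The labels do not say what a number stands for. The 10 genes, the pathway list and the marker lists were chosen with earlier results of these data known. Pathway genes were named if called with a mean of at least 50 normalized counts, at most 12 per assay by size of change. Upstream genes of the pathway are counted in its totals, and some of them are not reported here. The genes LAMTOR5, EIF4E and TTI1 are also given footprint values where input named them. Counting error alone limits values of few reads. Protein sequences are not used here.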

Additional observations from a re-analysis of the deposited data

How the results depend on the processing

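Over 480 comparisons of a gene's change with its value under another setting, 426 had the same sign and the same call, 24 lost a call, 10 gained one and 20 changed sign, none of them a called change. EIF4EBP1 was called lower in both assays, LARP4 in footprints, RHEB in input and TSC2 in footprints under every setting run. Of the genes in input, 2 rose, and 1 with no filter on low counts. In footprints 1 rose, but 3 with library totals and 2 with the replicate block, with adjusted p under 0.1 and with the DESeq2 Wald test. In footprints 4 fell, and 2 with library totals. Leaving out 1 library gave 0 to 2 higher and 2 to 4 lower in input, 1 to 2 higher and 2 to 4 lower in footprints, and 0 in density. With the replicate block EIF4EBP2 was called in footprints (0.73, adjusted p = 0.0298), and no other call on the 10 genes changed, in input, where the numbers did not pair, or in density, where a term for each pair of input and footprint libraries also called 0.

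Sign changes under another setting were RPTOR in footprints (0.0615) and in density (0.0876), both with library totals, RICTOR in density (0.11 with library totals, 0.0137 with limma, 0.0082 with TMM factors, 0.0097 with edgeR and 0.0114 without DMSO replicate 1 in both assays, a setting chosen after seeing the data) and RHEB in density (−0.0101 in that setting). Among fits without 1 library they were LARP1 in footprints (−0.12 to 0.19), RPTOR in input (−0.0993 to 0.0317) and, in density, EIF4EBP1 (−0.21 to 0.38), MTOR (−0.0313 to 0.157) and RICTOR (−0.12 to 0.0037). The cause was not tested. Library totals also moved the median density change of all genes to 0.176. The difference in the TSC2 share in input ranged from −2.71 to 0.372 percentage points without 1 library, and that of the LARP1 share in input from −3.29 to 1.58.

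Of the pathway genes, 5 rose in input, and 12 at an adjusted p under 0.1. In footprints 11 rose, and 18 with library totals. Without 1 library the counts were 4 to 9 higher and 5 to 9 lower in input, 8 to 15 and 9 to 12 in footprints, and 0 to 1 higher in density. Few input reads limit EIF4EBP1, EIF4EBP2 and TSC1, and with them every density estimate.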
